A study of Saccharomyces cerevisiae with 6 samples.

Results

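The large-subunit ribosomal protein genes of Saccharomyces cerevisiae encode the proteins of the cytosolic 60S subunit, including the P proteins of its stalk. They were chosen by name, as protein-coding genes of the R64 assembly whose symbol is RPL or RPP followed by a digit. RPP1, which encodes a subunit of RNase P, was left out, so that 81 of 6002 protein-coding genes remained. For each gene, Rap1 ChIP-seq peaks were taken whose summit lay in the coding span or up to 1000 bp upstream of the coding start. The coding span includes introns and holds no untranslated region.

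All samples came from strain UKY403, in which histone H4 synthesis is shut off when cells grown in galactose are moved to dextrose. Rap1 was precipitated with the antibody Y-300 from crosslinked cells after 0, 2 and 4 h in dextrose, with 2 biological replicates per time. The study asked whether Rap1 binds inside genes when nucleosomes run short. The isogenic control strain UKY412, which makes H4 in dextrose too, was not analysed here, so the loss of H4 and the change of sugar cannot be told apart. Each time is represented by a single peak list with no values per replicate, so no spread between replicates and no test between times could be given.

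The lists for 0, 2 and 4 h held 1212, 2438 and 4073 peaks and rested on 983197, 1483679 and 2327099 tags kept after duplicate removal. Each peak has a summit height, the number of extended tags over its summit, and a fold enrichment, the authors' ratio of height to background around the peak. A position can hold at most 292 extended tags, because identical tags were collapsed to 1. Genome-wide background was 11.8, 17.8 and 27.9 tags at 0, 2 and 4 h. At a peak near the height limit the fold enrichment therefore falls as background grows, and fold enrichments are compared only within a list. Heights are not scaled to depth, so a greater height in a later list is not by itself a gain of binding.

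Rap1 is a DNA-binding general regulatory factor that also covers telomeric repeats. At ribosomal protein promoters it recruits Fhl1 and Ifh1, which drive the coordinated transcription of the ribosomal subunits during growth, together with Sfp1 and, at many of them, Hmo1. A small set of ribosomal protein promoters, RPL3 among them, is known for binding the factor Abf1 instead.

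An upstream Rap1 summit was listed for 77 of the 81 large-subunit genes (95.1%) at 0 h, and for 77 each at 2 and 4 h. Among all protein-coding genes the shares in the same lists were 21.7, 28.2 and 37.6%. The same 77 genes had a summit at all 3 times, against 18.4% of all genes. Only RPL4A, RPL4B, RPP1A and RPP2B lacked one at any time. The list of genes with a site was thus the same before and after H4 shutoff, while the share of all genes with an upstream summit became larger in the longer lists.

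The sites were also at the same positions. For all 77 genes the peaks of the 3 lists overlapped one another. The summits of a gene spanned a median of 7 bp over the 3 times, and in 68 genes they lay within 20 bp. The same was not computed for other genes, so whether such constancy is particular to this family cannot be told. The widest spans were 80 bp at RPL35B, whose summit lay 280, 253 and 200 bp upstream at 0, 2 and 4 h, and 53 bp at RPL13B.

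Summits lay in a narrow zone before the coding start. The median distance was 336, 334 and 337 bp at 0, 2 and 4 h, with quartiles of 265 and 398 bp at 0 h. At 0 h, 64 summits were 200 to 500 bp upstream, 3 were nearer and 10 were farther. The nearest was that of RPL1A, encoding a protein of the mobile L1 stalk, at 157 bp. Over all protein-coding genes with an upstream summit in this window the median was 374 bp at 0 h, 448 bp at 2 h and 494 bp at 4 h.

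**Figure D1:**
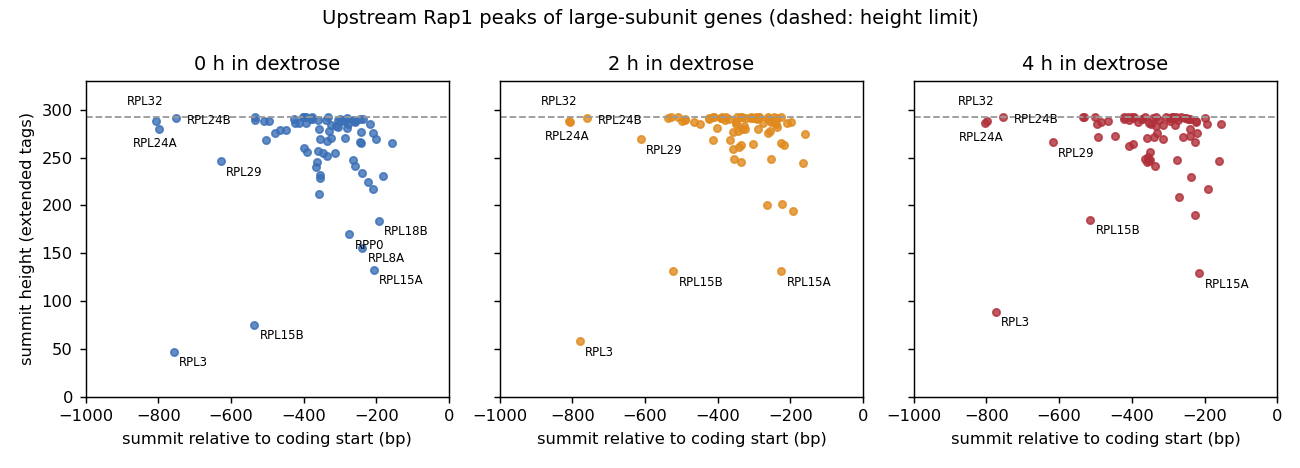
Summit height in extended tags (y) against the position of the summit relative to the coding start in bp (x) for the upstream peak of each large-subunit gene, 1 point per gene and 1 panel per time. Most points lie near the limit of 292 tags between 200 and 500 bp upstream, and RPL3 and the RPL15 copies lie below.

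Most of the peaks were close to the height limit. The median height over the 77 genes was 279, 287 and 286 tags at 0, 2 and 4 h, with minima of 47, 58 and 89 tags. Because RPL24A and RPL30 share a peak, there were 76 distinct peaks, which made up 6.27% of the list at 0 h and 1.87% at 4 h. At 0 h, 37 of these 76 peaks (48.7%) reached 280 tags, against 61 of the 1136 other peaks (5.37%). At 4 h, 47 of 76 (61.8%) and 120 of 3997 other peaks did so. The limit itself was reached by 6 large-subunit peaks at 0 h, among them those of RPL2B, RPL21A and RPL27A, out of 19 in the whole list. Differences in occupancy among peaks at or near the limit cannot be seen in these values.

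The 77 genes had median fold enrichments of 14.5, 11.6 and 8.11 in the lists of 0, 2 and 4 h. Over all peaks of the same lists the medians were 5.11, 3.51 and 3.09. For the highest upstream peak of each protein-coding gene that had one, they were 6.17, 4.46 and 3.71. The highest at 0 h were RPL22B (17.9), RPL32 (17.7), RPL6B (17.6), RPL27B (17.3) and RPL8B (17.3), which ranked between 5 and 14 in the list. At 2 h the highest were RPL37B (14.2), RPL16A (13.9), RPL7B (13.7), RPL40A (13.7) and RPL35A (13.5). At 4 h RPL23A (10.1) was 1 of 4 peaks that shared the highest value of the whole list, followed among the large-subunit genes by RPL16A (10.1), RPL8B (10.02), RPL26B (9.98) and RPL35A (9.98). Their heights were between 263 and 292 tags, and the order among them depends on the local background and the height to unlike degrees. At 0 h RPL22B was first with only 266 tags, at a local background of 1.18 times the genome-wide value. At 4 h the local background of RPL23A, RPL16A, RPL8B and RPL26B equalled the genome-wide value, so their order followed height.

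**Figure D2:**
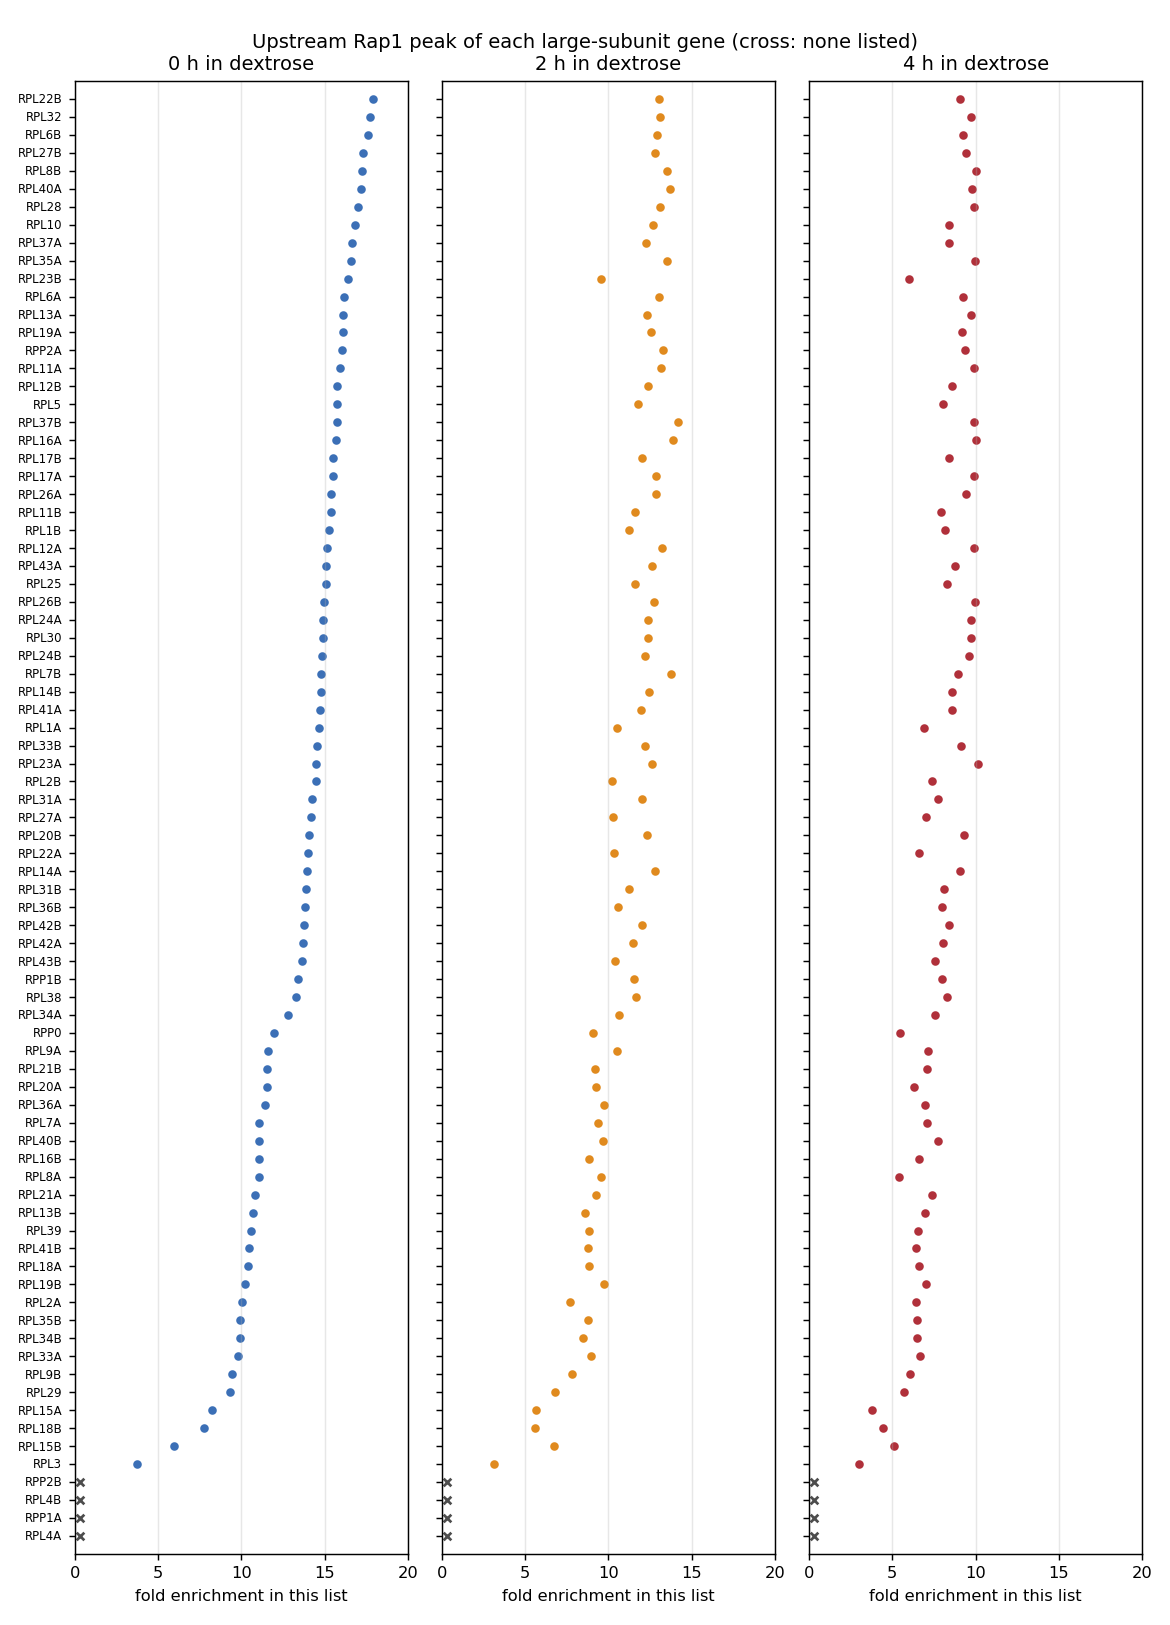
Fold enrichment (x) of the upstream Rap1 peak of each of the 81 large-subunit genes (y), ordered by the 0 h value, in the lists of 0, 2 and 4 h. Crosses mark the 4 genes with no upstream summit, and RPL3 is the lowest of the others in every panel.

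At nearly equal height, fold enrichments still differed, with the local background that enters them. Among large-subunit peaks of at least 280 tags at 0 h, it ran from 9.95 at RPL35B to 17.7 at RPL32. The authors' values fix the local background of each peak, since the fold enrichment is the height plus 1 over the local background plus 1. For these peaks the local background was between 1.30 and 2.32 times the genome-wide background. At 0 h, 18 of the 76 peaks had another peak of at least 200 tags within 5000 bp. Their median fold enrichment was 10.4 at a median height of 280 tags, against 14.9 at 278.5 tags for the other 58. A low fold enrichment in this family is therefore not by itself a sign of a small peak. The share of all peaks with such a high neighbour is not given here, so whether it is particular to this family cannot be told.

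**Figure D3:**
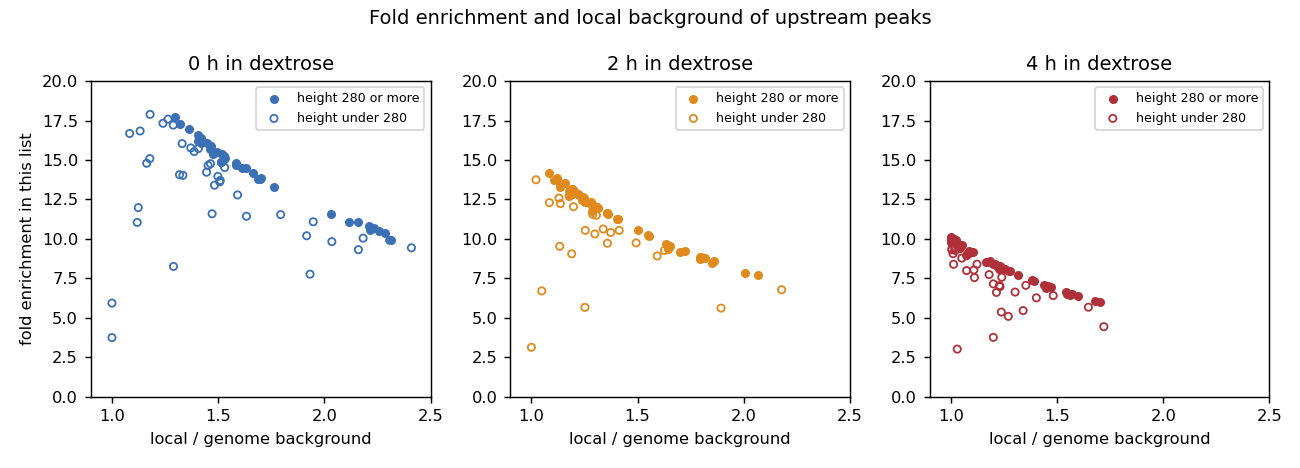
Fold enrichment (y) of the upstream peaks of large-subunit genes against their local background as a multiple of the genome-wide background (x), in the lists of 0, 2 and 4 h. Filled points have heights of 280 tags or more and open points are lower peaks; the filled points fall on a line because the background was computed from fold enrichment and height.

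A few genes had peaks that were small in height as well. RPL3, which encodes a protein at the peptidyl transferase centre, had the weakest, with heights of 47, 58 and 89 tags at 0, 2 and 4 h and fold enrichments of 3.75, 3.14 and 3.02. The 95% Poisson intervals of these heights, which cover counting error only, were 34.5 to 62.5, 44.0 to 75 and 71.5 to 110 tags. The heights are not scaled to depth, so these intervals do not compare the times. As multiples of the genome-wide background the heights were 3.98, 3.26 and 3.18. The summit was 757 bp upstream at 0 h, on chromosome XV at 443929, and was nearer to the start of YOR062C, at 398 bp. It therefore cannot be assigned to RPL3 alone.

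Both genes for the protein L15 were also low. RPL15A had 133, 131 and 129 tags and fold enrichments of 8.26, 5.66 and 3.76 at 0, 2 and 4 h. RPL15B had 75, 131 and 185 tags and fold enrichments of 5.93, 6.70 and 5.09. The copy with the higher fold enrichment thus changed from RPL15A at 0 h to RPL15B in both later lists. In height the copies were equal at 2 h, with 131 tags each. The RPL15B summit lay 536 bp upstream at 0 h, inside the coding span of YMR122C and nearer to the start of NCW1, so that its assignment is uncertain.

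RPL18B had 184, 194 and 217 tags, RPL8A had 156, 201 and 190 tags, and RPP0 had 170, 200 and 209 tags at 0, 2 and 4 h. In these 3 genes the summit was nearest to their own start, 190 to 275 bp upstream, and below the height limit in every list. RPL29, encoding a protein that is not essential for growth, was low in fold enrichment (9.32, 6.78 and 5.68) with heights of 246, 269 and 266 tags. Its summit was 628 bp upstream at 0 h but 92 bp from the start of MIN10.

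The stalk is the flexible arm of the subunit that recruits elongation factors. Its base is formed by P0, encoded by RPP0, next to L12, and it carries P1 and P2 proteins that pair as P1A with P2B and P1B with P2A. RPP1B had heights of 247, 276 and 247 tags and fold enrichments of 13.4, 11.6 and 8.0 at 0, 2 and 4 h. RPP2A had 267, 280 and 271 tags and fold enrichments of 16.04, 13.3 and 9.35. No upstream summit was listed for RPP1A or RPP2B, so upstream summits were listed for the genes of 1 such pair and not for those of the other. Upstream of RPP1A, on chromosome IV at 309802 to 310122, the nearest summit was 11713 bp away at 0 h and 5868 bp away at 4 h. Upstream of RPP2B, on chromosome IV at 1239492 to 1239824, the nearest was 3161 bp away at 0 h. RPL12A and RPL12B had full-height peaks of 287 to 292 tags in all lists, 486 to 508 bp upstream, and RPP0 had the lower peak described above.

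RPL5, RPL11A and RPL11B encode the proteins that bring 5S rRNA into the subunit. All 3 had upstream peaks at every time, with fold enrichments of 15.8, 15.9 and 15.4 at 0 h and 8.06, 9.93 and 7.95 at 4 h. Their heights were between 270 and 292 tags. The RPL11A summit was 377 bp upstream at 0 h and 224 bp from the start of the divergent proteasome gene PRE2. RPL40A and RPL40B, whose products are made as fusions to ubiquitin, had 278 and 287 tags at 0 h, with fold enrichments of 17.2 and 11.1. The local background was 1.29 times the genome-wide value at RPL40A and 2.12 times at RPL40B.

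Of 16 genes for proteins around the polypeptide exit tunnel, 14 had upstream summits at each time. The exceptions were RPL4A and RPL4B, which encode L4, a protein with a loop that lines the tunnel. At 0 h no summit lay nearer than 21377 bp upstream of RPL4A or 8800 bp upstream of RPL4B. The other 14 had a median fold enrichment of 15.0 at 0 h and 8.36 at 4 h. Another 8 genes were grouped as core, namely RPL3, RPL10 and both copies of RPL1, RPL2 and RPL16. The group mixes proteins near the peptidyl transferase centre and the tRNA sites with others, such as those of RPL16 and the L1 stalk. All 8 had an upstream summit, with median fold enrichments of 14.6 and 7.12 at 0 and 4 h. RPL3 was the lowest of them in fold enrichment, and RPL10, whose protein joins the subunit late, was among the highest (16.8 at 0 h). The RPL10 height at 0 h was only 241 tags, against a median of 277 in the group. Its local background was 1.13 times the genome-wide value. The remaining 45 genes all had upstream summits as well, with medians of 13.8 and 8.04.

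The nearest upstream coding span was divergent for 43 of the 81 genes (53.1%), against 52.0% of all protein-coding genes, and in tandem for 38. The gap to that span had a median of 641 bp, against 455 bp for all protein-coding genes. Divergent and tandem genes had upstream peaks of like height, with medians of 280 and 277 tags at 0 h. At 0 h, 41 of the 77 peaks also lay within 1000 bp upstream of another gene, and 20 were nearer to that other start. These peaks cannot be assigned to 1 gene alone. The same shares over all peaks are not given here, so whether such sharing is particular to this family cannot be told.

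In 5 regions a single peak lay upstream of 2 ribosomal protein genes. RPL24A and RPL30 are divergent, and their peak was 799 and 358 bp upstream of their starts at 0 h, with 280 tags. RPL30 encodes a protein that regulates its own transcript. The other 4 joined a large-subunit and a small-subunit gene, with the distances at 0 h given in this order. They were RPL13A with RPS16B (219 and 416 bp), RPL13B with RPS16A (378 and 343 bp), RPL39 with RPS22A (393 and 238 bp) and RPP2A with RPS15 (336 and 384 bp). All 5 peaks were listed at every time, with heights of 267 to 292 tags. RPL32 also had its only upstream peak far away, 806 bp at 0 h and 254 bp from the start of the Mediator gene ROX3, with 288 tags in each list.

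Most large-subunit proteins are made from a pair of genes, named A and B. Most pairs arose by genome duplication and encode nearly the same protein. Pairs were taken by name, so they include RPP1 and RPP2, whose A and B proteins have different partners in the stalk. There were 35 such pairs and 11 genes without a second copy. In 32 pairs both copies had an upstream summit in each list, in RPP1 and RPP2 only 1 copy did, and in RPL4 neither did. Within a pair the higher fold enrichment was a median of 1.22 times the lower at 0 h, 1.25 times at 2 h and 1.22 times at 4 h. Heights differed less, with a median ratio of 1.09 at 0 h and 1.06 at 4 h. The limit of 292 tags narrows such height differences, so they do not show how alike the copies are in occupancy. The A copy had the higher fold enrichment in 16 of the 32 pairs at 0 h, and the same copy was higher in all lists in 22 of them.

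The 5 pairs with the largest ratios at 0 h were RPL35, RPL19, RPL8, RPL40 and RPL13. RPL35A had a fold enrichment of 16.6 with 291 tags and RPL35B one of 9.95 with 281 tags at 0 h, and the local background was 1.40 and 2.32 times the genome-wide value. RPL19A had 16.1 with 290 tags, and RPL19B 10.2 with 240 tags. RPL13A had 16.1 with 285 tags, and RPL13B 10.7 with 292 tags. In RPL35, RPL40 and RPL13 the copy with the lower fold enrichment had nearly the same height or a greater one, and in RPL8 and RPL19 the heights differed too. RPL8A had 156 tags and RPL8B 285 tags at 0 h, with fold enrichments of 11.0 and 17.3. The distance of the site from the start differed within pairs by a median of 77.5 bp at 0 h and by at most 329 bp, in RPL15. That largest difference is uncertain, because the RPL15B summit was nearer to the start of NCW1.

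**Figure D4:**
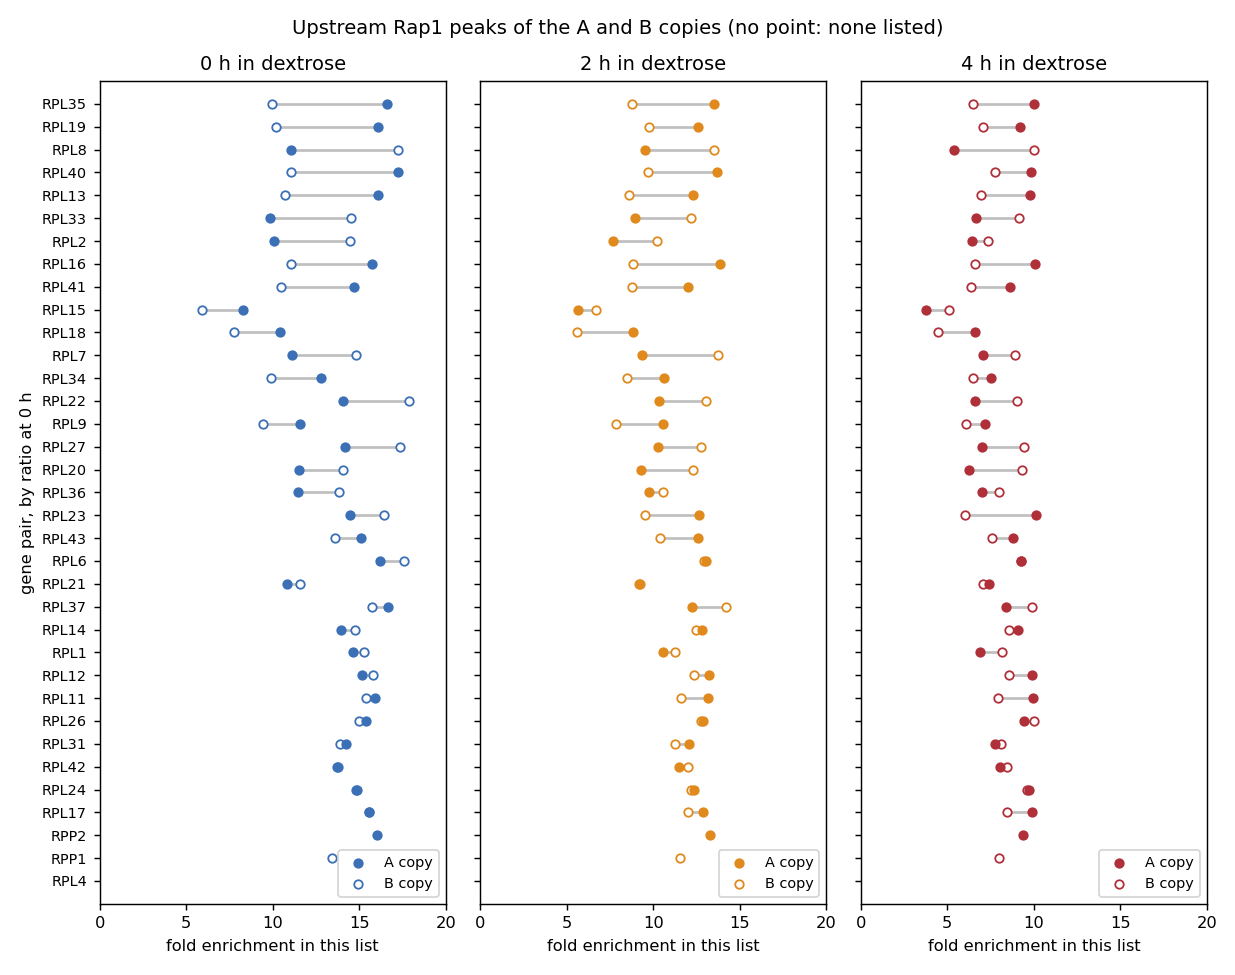
Fold enrichment (x) of the upstream peak of the A copy (filled) and B copy (open) of each of the 35 gene pairs (y, ordered by the ratio at 0 h), in the lists of 0, 2 and 4 h. RPL35, RPL19 and RPL8 are farthest apart at 0 h, and RPP2, RPP1 and RPL4 lack 1 or both points.

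Inside coding spans, summits were rare at 0 h and more frequent in the later lists. A coding summit was listed in 1 of the 81 genes at 0 h, 5 at 2 h and 22 at 4 h (1.23, 6.17 and 27.2%). Among all protein-coding genes the shares were 4.13, 21.0 and 37.1%. Large-subunit genes are short, with a median coding span of 795 bp against 1200 bp for all genes. Per kb of coding span they held 0.0162, 0.0810 and 0.389 summits at 0, 2 and 4 h, against 0.0295, 0.165 and 0.337 over all genes. The count was thus below the background at 2 h on either scale and close to it per kb at 4 h, and no test was made.

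The strongest intragenic peaks were in RPL36A, RPL32 and RPL16B. The spans include introns, and whether a summit lay in an intron or an exon was not determined. RPL16B was the only large-subunit gene with a coding summit at 0 h. It had 59, 168 and 242 tags at 0, 2 and 4 h, with fold enrichments of 2.30, 5.22 and 5.56. Its summit was 320 bp after the coding start at 0 h and 273 and 276 bp after it later. RPL36A had no peak at this place at 0 h, and 120 and 199 tags at 2 and 4 h, with fold enrichments of 4.81 and 5.65, 374 and 376 bp after the start. RPL32 had 88 and 163 tags at 2 and 4 h, with fold enrichments of 4.05 and 5.56, but its summit was 18 and 7 bp after the start, so that it lay at the edge of the span. In these 3 genes the upstream site was present as well, with the intragenic peak lower in height in each list.

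RPL31A, whose protein sits near the tunnel exit, had 61 and 120 tags at 2 and 4 h and fold enrichments of 2.82 and 3.58, with the summit 607 and 608 bp into a span of 763 bp. RPL4A, which had no upstream summit, had 51 and 86 tags at 221 and 260 bp after the start at 2 and 4 h. Its copy RPL4B had 88 tags at 243 bp at 4 h. The coding sequences of such copies are alike, and the handling of tags that match both is not stated for these lists, so the 2 peaks may not be independent. RPP2B, also without an upstream summit, had 61 tags at 144 bp at 4 h.

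By role, the 4 h coding summits were in 7 of the 8 core genes, 4 of the 16 exit tunnel genes, 2 of the 7 stalk genes, 2 of the 3 5S genes and 7 of the other 45, against 37.1% of all protein-coding genes. Among the core genes they were in RPL3, RPL10, RPL16B and both copies of RPL1 and RPL2, and RPL16A had none. Most of these peaks were weak, since only RPL16B passed a fold enrichment of 3, and RPL2A (1.59), RPL3 (1.96), RPL1A (2.27) and RPL10 (2.28) were lower. The RPL1 and RPL2 copies are alike in sequence, so these 4 may not be independent, and the groups are small. The summits in RPL10, RPL1A, RPL1B and RPL2A also lay within 1000 bp upstream of FMP25, PCL8, PCL10 and SMC2, in this order. They therefore cannot be assigned to the core genes alone.

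After RPL31A, the next highest fold enrichments at 4 h were those of RPL24B (3.41), RPL33A (3.40), RPL4B (3.07), RPL4A (2.93), RPL1B (2.92) and RPL2B (2.31), all absent at 0 h. The 24 coding summits at 4 h had a median fold enrichment of 2.26, below the 2.88 of all coding summits in that list. Of the 24, 23 had no overlapping peak at 0 h, and 13 lay nearer to the start than to the end of the span, close to the 53.9% of all coding summits in that list. Their heights, from 52 tags at RPL6B to 242 tags at RPL16B, were below those of most upstream peaks of the family. Several of these summits, such as that in RPL24B before NAT2, also lay within 1000 bp upstream of another gene.

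**Figure D5:**
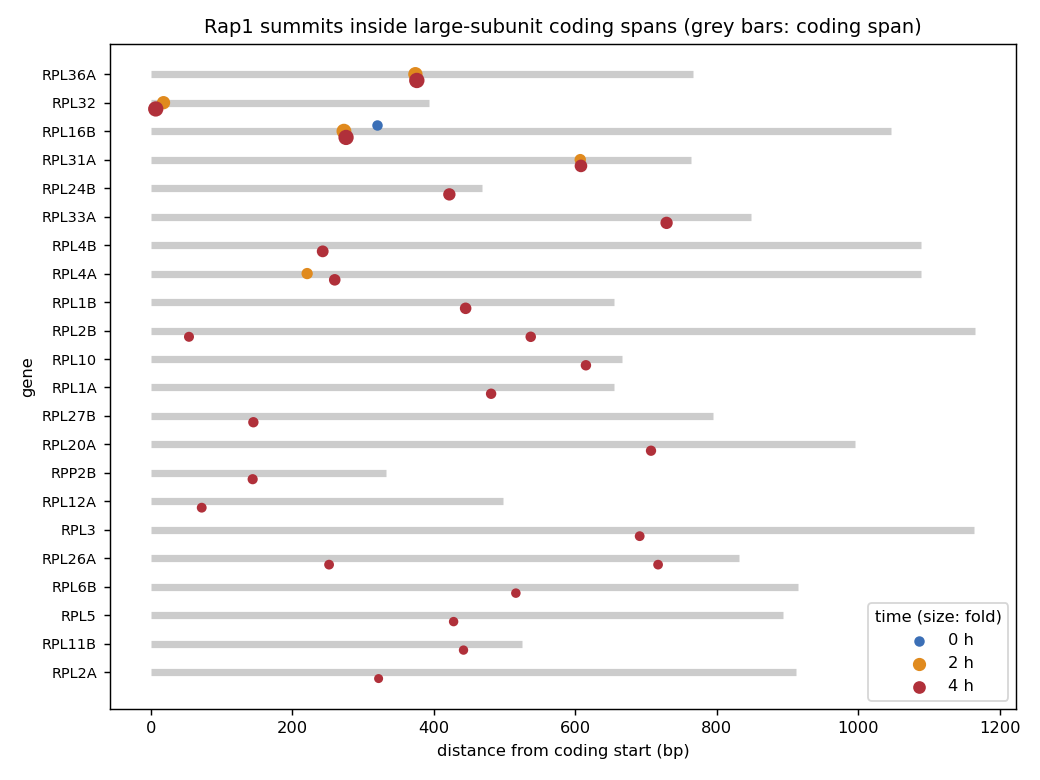
Position of each Rap1 summit inside a large-subunit coding span, in bp from the coding start (x), for the 22 genes with such a summit (y); grey bars show the span, colours the time, and point area the fold enrichment. RPL16B alone has a point at 0 h, and most genes have a point at 4 h only.

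The longer lists also held further upstream summits next to the main site. No large-subunit gene had a second upstream summit at 0 h, 3 had one at 2 h and 11 at 4 h, against 1.08, 1.80 and 3.63% of all protein-coding genes. Since a second summit needs a first, the 11 of 77 genes at 4 h may be set beside 218 of the 2257 genes with any upstream summit. Of the 11 at 4 h, 9 lay in the coding span of a neighbouring gene, such as MIL1 before RPL22B (fold enrichment 4.14), GUT1 before RPL8A (3.57) and HSE1 before RPL14B (3.30). None overlapped a peak at 0 h.

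The small-subunit genes gave nearly the same picture upstream. Of 56 genes with the symbol RPS and a digit, 53, 53 and 54 held upstream summits in the lists of 0, 2 and 4 h, with RPS28B, RPS22B and RPS28A as the exceptions in at least 1 list. Their median fold enrichments were 14.3, 10.9 and 7.47, and their median distance was 346 bp at 0 h. Coding summits were listed in 0, 7 and 12 of them. No test of a difference between the subunits was made.

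Among 8 regulators of ribosomal protein genes, 4 had an upstream summit at 0 and 2 h and 5 at 4 h, too few to set apart from the 21.7, 28.2 and 37.6% of all genes. RAP1 itself had a strong peak 128 bp before its start, with 287, 288 and 290 tags at 0, 2 and 4 h. HMO1 had a small peak 13 bp before its start at 0 h, with 37, 62 and 112 tags. The summits of IFH1 and SFP1 were nearer to the starts of UCC1 and DUS3. CRF1, encoding a corepressor that acts through Fhl1, had a summit 616 bp upstream at 4 h only, with 58 tags. At 4 h coding summits were listed in FHL1 (2.01), IFH1 (2.52) and REB1 (2.55), and in none of the 8 regulators before, a share at 4 h like the 37.1% of all genes.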

How the data were processed

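Rap1 ChIP-seq peak lists, 1 per time point, were used as deposited. Peaks were called with MACS2 2.0.10.20130712 without a control library, per the file headers. The tag extension was set to 147 bp, and the file headers give a fragment length of 146 bp, on which the height limit of 292 tags rests. Identical tags were reduced to 1, the q cutoff was 0.05 and the wider background window was 10000 bp. The deposited summit signal is the number of extended tags, without scaling to depth. Fold enrichment is a ratio to the local background, and -log10 q values are those of the deposited lists. The submitters' processing notes name Bowtie, SAMtools and sacCer3. It is not stated whether a list pools both replicates, nor how tags matching several places were treated.

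Summits were assigned with Python 3.11.15 and pandas 2.3.3 to coding spans of the RefSeq table of R64, the same assembly as sacCer3, with strand read from the systematic name. The assignment was tested on simulated data. A summit counted for every gene whose window held it, and the peak with the highest fold enrichment represented a gene. Local background was computed from the deposited height and fold enrichment. Poisson intervals of heights cover counting error only.

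The members, gene groups and regulators were chosen with earlier results of these data known. Named were the 5 highest and 5 lowest members per list, members without an upstream summit, those with coding summits at 0 or 2 h and the 10 highest at 4 h, the 5 pairs with the largest ratio at 0 h and pairs with a summit at 1 copy, shared peaks, the stalk, 5S and ubiquitin fusion groups and regulators with a summit. Examples outside these were chosen after their values were seen. The planned search for Rap1 and Abf1 motifs was not run, because no genome sequence was used here. Alternatives covered windows, q and fold cutoffs, overlap rules, assignment to the nearest start and equal list lengths.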

Additional observations from a re-analysis of the deposited data

How the results depend on the processing

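Of 60 alternative values for 13 results, 49 stayed within 1.5 times the reported count or 10% of the reported median. With a window of 250 bp, upstream summits were listed for 16, 15 and 17 members at 0, 2 and 4 h and for 15 at all times, since most sites lie farther away. Assigning each summit to the nearest start only left 57, 58 and 57 members. Counting any overlap of the interval gave coding peaks in 13 members at 0 h and 16 at 2 h, since intervals with a summit outside the span then count as well. A fold enrichment of at least 3 left 0, 3 and 7 members with a coding summit. With the 1212 peaks of highest -log10 q per list, the later lists held coding summits in 3 members each, and upstream summits in 76 at 2 h and 75 at 4 h. The increase in coding summits thus lies mostly in peaks beyond the length of the 0 h list. No paired analysis was possible because the lists carry no values per replicate, and for the same reason no replicate could be left out. The 0 h list has the fewest kept tags, and the part of depth in its few weak peaks was not tested. The height limit of 292 tags hides differences among strong peaks.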

Other observations

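The later lists held more peaks around the upstream sites, as around peaks in general. In the lists of 0, 2 and 4 h, a large-subunit summit had a median of 0, 1 and 3 other peaks within 5000 bp, against 1, 2 and 3 over all peaks of the same lists. No other peak lay within that distance for 51.9, 23.4 and 3.90% of the 77 genes, against 40.3, 13.7 and 3.66% of all peaks.

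RPL23B and RPL23A, which encode the same protein of the subunit interface, were singled out after their values were seen. RPL23B had heights of 290, 289 and 290 tags at 0, 2 and 4 h and fold enrichments of 16.4, 9.54 and 6.0. RPL23A had 289, 291 and 292 tags and fold enrichments of 14.5, 12.6 and 10.1. The order of the copies was thus opposite at 0 h and in the later lists at nearly equal heights. The local background at RPL23B was 1.42, 1.65 and 1.70 times the genome-wide value. No other peak lay within 5000 bp of it at 0 h, and 3 did at 2 h and at 4 h, all in coding spans. At 4 h these were in BOI2 (175 tags), SPR6 (152 tags) and AVT6 (278 tags). Their part in the fold enrichment was not tested.

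RPL15A had a further peak beyond the end of its coding span, with its summit at 201799 on chromosome XII at 0 h. The heights there were 104, 155 and 219 tags at 0, 2 and 4 h, against 133, 131 and 129 tags at the upstream summit. These heights are not scaled to depth, and genome-wide background was 11.8, 17.8 and 27.9 tags. The fold enrichments were 6.38, 5.91 and 5.57 at the further peak, against 8.26, 5.66 and 3.76 at the upstream summit. The greater height in the later lists is thus not by itself a gain of binding.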
